A study of Mus musculus with 16 samples.

Results

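Oxidative phosphorylation subunits are the proteins that build the 4 respiratory chain complexes and the ATP synthase of the inner mitochondrial membrane, and their transcripts were followed here in the mouse esophagus. They were taken by gene name: protein-coding genes of the Ndufa, Ndufb, Ndufc, Ndufs, Ndufv, Sdha to Sdhd, Uqcr, Cox4 to Cox8 and Atp5 families, and the mt-Nd, mt-Co, mt-Cytb and mt-Atp genes of the mitochondrial genome, with a deposited value of at least 5 in at least 4 of the 16 libraries. Of 111 protein-coding genes whose names matched, 106 met that minimum, out of 41411 genes in the table and 16748 that met the same minimum and were tested. The 106 genes comprised 80 nuclear genes for subunits, 13 mitochondrially encoded genes for subunits, and 13 nuclear genes for assembly or coupling factors that share the name stems (Ndufaf1 to Ndufaf8, Sdhaf1 to Sdhaf4 and Atp5s). Of the 106, 104 reached the minimum in all 16 libraries.

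A further 5 names did not meet it. Cox4i1, the general form of subunit 4 of complex IV, and Ndufa13, a complex I subunit, were listed at 0 in all 16 libraries. Both genes lie within the span of a longer gene on the same strand, Gm20388 for Cox4i1 and Yjefn3 for Ndufa13, with which they share 0% of their exonic bases in the GRCm38 annotation used here. For Gm20388 the table lists 385 to 927 in KO OXA, 579 to 678 in KO vehicle, 505 to 786 in WT OXA and 463 to 789 in WT vehicle. A listed 0 is not read here as absence of the transcript. Cox8c, a testis isoform, was also at 0 throughout, and Cox4i2 and Cox7b2 reached the minimum in 1 library each. The members nearest to the minimum were the genes annotated as Atp5o, a stalk subunit of the ATP synthase, which the table lists under a pair of identifiers with overlapping exons. The Atp5o entry ENSMUSG00000022956 reached the minimum in 11 libraries, with 27 recovered reads over the KO OXA libraries, 25 in KO vehicle, 195 in WT OXA and 18 in WT vehicle. The entry ENSMUSG00000116933 reached it in 15, and 100% of its exonic bases are shared with other genes on its strand, so its reads cannot be assigned with certainty.

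In this pathway, electrons from NADH enter complex I (the Nduf subunits and the mt-Nd proteins) and electrons from succinate enter complex II (the Sdh subunits). Complex III (the Uqcr subunits and cytochrome b) passes them by way of ubiquinone to cytochrome c, and complex IV (the Cox subunits) hands them to oxygen. The proton gradient this builds drives complex V, the ATP synthase. Mitochondrial DNA encodes a small set of core proteins of complexes I, III, IV and V, and the nucleus encodes the rest, so that assembly needs products of both genomes. In the esophagus, the striated muscle coat of the mouse and the stratified squamous epithelium are both candidate contributors of these transcripts, and a measurement on whole tissue sums over them.

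RNA from the esophagus of C57BL/6 mice was profiled with CEL-Seq, a method that sequences the 3′ ends of transcripts. There were 4 groups of 4 libraries: Il13ra1-/- mice given oxazolone (OXA), a hapten used to induce experimental eosinophilic esophagitis (KO OXA), Il13ra1-/- mice given vehicle (KO vehicle), WT mice given OXA (WT OXA) and WT mice given vehicle (WT vehicle). Il13ra1 encodes a chain of the receptor for IL-13 and IL-4, and the labels give the deletion without a Cre driver. The labels name neither age, sex, dose, time nor batch, and they do not say that the libraries of a group come from separate animals, so p-values measure the spread between these samples, which may be partly technical. The replicate numbers below follow the order of the samples and pair nothing. Values are gene counts divided by a size factor per library, on a linear scale. Log2 fold changes come from log2(value + 1) and are given ± their standard error, with limma p-values adjusted by the Benjamini-Hochberg method over the 16748 genes and a threshold of 0.05. The added 1 makes the fold changes of low genes too small.

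Recovered reads per library, in M reads, averaged 11.6 ± 2.71 M in KO OXA, 12.9 ± 3.64 M in KO vehicle, 23.3 ± 3.63 M in WT OXA and 7.64 ± 1.70 M in WT vehicle (SD, n = 4 each), so depth moved with the groups, and its part in the results was not tested. The targeted gene Il13ra1 had 44.0, 174, 68.1 and 110.3 in KO OXA, 31.2 to 64.7 in KO vehicle, 584 to 874 in WT OXA and 134 to 226 in WT vehicle. A single KO OXA library (replicate 2) lay inside the WT vehicle range, and the sources used here do not say whether the deletion removes the 3′ end that is counted. A pair of libraries stood apart for the genes described here. KO OXA replicate 1 and WT vehicle replicate 4 had the highest nuclear and the lowest mitochondrial subunit levels of their groups, and counts are given with and without them.

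The nuclear subunits were lower in WT OXA esophagus than in WT vehicle esophagus. In WT mice 32 of the 80 nuclear subunits fell with OXA and 4 rose, where 16% of all tested genes fell and 18% rose, and the median log2 fold change over the 80 was -0.42, against 0.0994 over all genes. In 39 of the 80 every WT OXA library lay below every WT vehicle library and in 7 above it, where 15.7% and 18.5% of all genes did so. In KO mice none of the 80 passed the threshold, where 1.81% of all genes rose and 0.0896% fell with OXA. At an unadjusted limma p under 0.05, 30 of the 80 were higher in KO and 0 lower, against 9.44% and 4.78% of all genes. Between the OXA groups, 47 nuclear subunits were higher in KO than in WT and 2 were lower, against 14.6% and 12.9% of all genes. The libraries did not overlap for 37 subunits that were higher and 2 that were lower in KO OXA, against 14% and 15.3% of all genes. Of the 13 mitochondrially encoded subunits 3 fell with OXA in WT (23.1%) and none rose, against the 16% and 18% above. Under OXA 3 were higher (23.1%) and 1 lower (7.69%) in KO than in WT, against 14.6% and 12.9%. With so few genes these calls are not far from the shares of all genes. Every WT OXA library lay below every WT vehicle library for 4 and above for 0, against 15.7% and 18.5% of all genes. KO OXA lay wholly above WT OXA for 4 and wholly below for 0, against 14% and 15.3%.

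Averaged over the 80 nuclear subunits, log2(value + 1) was 10.9, 10.2, 10.5, 10.1 in KO OXA replicates 1 to 4, 10.2, 10.2, 10.2, 10.2 in KO vehicle, 9.89, 9.88, 9.79, 9.94 in WT OXA and 10.2, 10.1, 10.2, 10.6 in WT vehicle. All 4 WT OXA libraries lay below the 12 others, which overlapped among themselves. The same average over the 13 mitochondrially encoded subunits was 14, 14.5, 15, 14.6 in KO OXA, 14.8, 14.8, 14.6, 15 in KO vehicle, 14.3, 14.4, 14, 14.1 in WT OXA and 14.8, 14.4, 14.7, 14.1 in WT vehicle. Here the WT OXA range overlapped those of KO OXA and WT vehicle, and the KO vehicle libraries were close together near the top. In whole tissue, fewer cells of a type and less RNA per cell cannot be told apart.

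**Figure D1:**
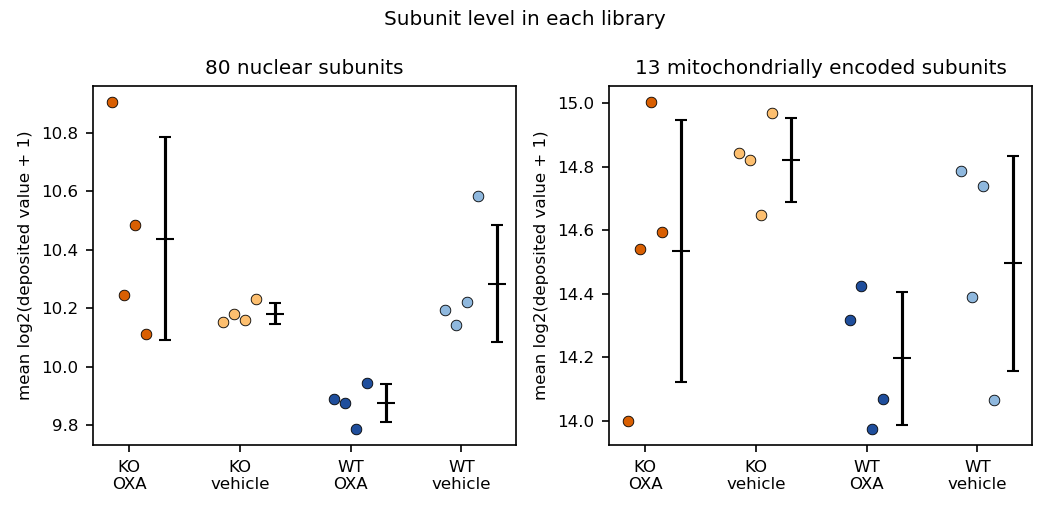
Mean log2(value + 1) of the 80 nuclear and 13 mitochondrially encoded subunits in each library (points) with the group mean and SD (n = 4), for KO OXA, KO vehicle, WT OXA and WT vehicle. The 4 WT OXA points lie lowest for the nuclear subunits, while the mitochondrially encoded averages of WT OXA overlap those of KO OXA and WT vehicle.

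The size of the fall depends on how libraries are scaled. When every library was scaled to the same total instead of by the deposited size factors, the median over all genes moved to 0.41 and the split for the nuclear subunits in WT became 12 higher and 19 lower, with a median of -0.10. Under that scaling 30.5% of all genes were higher and 8.93% lower, and these shares are the background of each count in WT given below with equal totals. Leaving the most abundant and the mitochondrial genes out of that total gave 10 higher and 27 lower, against 23.6% and 11.9% of all genes. Relative to the median of all genes, the nuclear median was -0.52 with the deposited scaling and -0.51 with equal totals, and 68 of the 80 subunits lay below the all-gene median under both. Equal totals multiply each library by a constant, which shifts all genes nearly alike, so this closeness follows from the scaling and tests nothing. After quantile normalization the nuclear median relative to that of all genes was -0.30, with 7 higher and 31 lower, against 17.2% and 17.5% of all genes. As a share of all recovered reads, nuclear subunits made up 1.43 ± 0.176% in KO OXA, 1.284 ± 0.0252% in KO vehicle, 1.31 ± 0.0383% in WT OXA and 1.38 ± 0.235% in WT vehicle, and these shares overlapped. Without KO OXA replicate 1 and WT vehicle replicate 4, 31 nuclear subunits fell and 4 rose in WT, with a median of -0.32. With the 13 factors added, 35 of 93 nuclear genes fell and 6 rose.

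Among the 35 nuclear subunits of complex I, 13 fell with OXA in WT and 2 rose, with a median log2 fold change of -0.37. Equal library totals gave 9 lower and 6 higher. Ndufb2, an accessory subunit of the membrane arm (chromosome 6, 39592574 to 39603382, GRCm38), had 552, 257, 399.8 and 241 in KO OXA, 276, 254, 236 and 248 in KO vehicle, 113, 117, 91.4 and 125 in WT OXA and 285, 328, 217 and 357 in WT vehicle. The 4 WT OXA libraries were below every library of the other groups. Its log2 fold change with OXA was -1.39 ± 0.23, adjusted p = 0.000123 in WT, and the KO effect exceeded the WT effect by 1.82 ± 0.32, adjusted p = 0.000748. Ndufc1, a small accessory subunit, had 1014, 1026, 1032 and 1229.6 in WT OXA, against 1750.0, 1829.6, 1839 and 2262 in WT vehicle, a log2 fold change of -0.83 ± 0.16, adjusted p = 0.000423. The 4 WT OXA libraries were again the lowest of the 16, with 1 of them above the other 3. In KO OXA the same gene had 2712, 1743, 2159.9 and 1560.0, against 1934, 1628, 1867 and 1891 in KO vehicle, and the groups overlapped.

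Ndufa7, Ndufb11 and Ndufb6, further accessory subunits, fell to 478 ± 20.3, 754 ± 69.9 and 1761 ± 154 in WT OXA, against 1018 ± 150.4, 1622 ± 465 and 3065 ± 575 in WT vehicle (SD, n = 4 each). The log2 fold changes were -1.08 ± 0.21 for Ndufa7, -1.07 ± 0.22 for Ndufb11 and -0.79 ± 0.16 for Ndufb6. Of the 7 conserved core subunits encoded in the nucleus, which carry the flavin, iron-sulfur clusters and quinone site, 2 fell and none rose (4 lower and 0 higher at an unadjusted limma p under 0.05). These were Ndufs8, an iron-sulfur subunit, at -1.10 ± 0.26, adjusted p = 0.00279, and Ndufv1, which binds NADH, at -0.75 ± 0.19, adjusted p = 0.00526. The call for Ndufv1 was lost with equal library totals (adjusted p = 0.0788). In the accessory subunits 11 of 28 fell and 2 rose.

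The complex I subunits that rose in WT were Ndufb3 and Ndufb8, both of the membrane arm. Ndufb3 had 2599.9, 2255, 2825 and 2761 in WT OXA, against 1475, 1638, 1558 and 1992 in WT vehicle, and a log2 fold change of 0.65 ± 0.18, adjusted p = 0.00718. Ndufb8 was a low-value gene, with 47.7, 25, 26 and 27.6 in KO OXA, 22.4, 30.2, 32 and 36.1 in KO vehicle, 59.1, 63.1, 56.1 and 75.6 in WT OXA and 24.8, 18.5, 25.5 and 44.6 in WT vehicle. With OXA in WT it rose, at a log2 fold change of 1.20 ± 0.33, adjusted p = 0.00767. Under OXA it was lower in KO than in WT, at -1.03 ± 0.33, adjusted p = 0.0228, and the difference no longer passed without KO OXA replicates 2 or 3 or WT OXA replicates 2 or 4 (adjusted p up to 0.0685).

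Complex II, the succinate dehydrogenase, is the respiratory complex with no mitochondrially encoded subunit, and none of its 4 subunits passed in any of the 5 comparisons with limma (0 higher and 0 lower in each at an unadjusted limma p under 0.05, by edgeR and by DESeq2). Sdha, the flavoprotein, had 1821 to 2433 in KO OXA, 2086 to 2600.0 in KO vehicle, 1592 to 2162 in WT OXA and 1889.9 to 2933 in WT vehicle. Sdhb, the iron-sulfur subunit, had 495 to 754 in KO OXA, 586 to 633 in KO vehicle, 463 to 621 in WT OXA and 439 to 816 in WT vehicle. The membrane anchors were likewise overlapping, with Sdhc at 759.6 to 1046 in KO OXA, 942 to 1392 in KO vehicle, 865 to 1105 in WT OXA and 654 to 1424 in WT vehicle, and Sdhd at 259 to 515 in KO OXA, 223 to 363 in KO vehicle, 286 to 391 in WT OXA and 266 to 394 in WT vehicle. The log2 fold changes with OXA in WT were -0.31 ± 0.15 for Sdha, -0.29 ± 0.18 for Sdhb, -0.03 ± 0.19 for Sdhc and -0.03 ± 0.21 for Sdhd. Without WT vehicle replicate 2 Sdhb passed as lower with OXA in WT (-0.48, adjusted p = 0.0194). These estimates do not show that the complex II transcripts were unchanged.

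In complex III, 2 of 8 nuclear subunits fell with OXA in WT and none rose (5 lower and 0 higher at an unadjusted limma p under 0.05), and equal library totals gave 0 lower and 1 higher. Uqcrc1, a core protein facing the matrix, had 727, 616, 580.3 and 622 in WT OXA, against 916, 692, 1324 and 1609 in WT vehicle, and a log2 fold change of -0.77 ± 0.22, adjusted p = 0.0101, with overlapping ranges. Uqcr11, a small accessory subunit, had 246, 236, 267 and 249 in WT OXA, against 380.0, 369, 354 and 557 in WT vehicle, and a log2 fold change of -0.71 ± 0.21, adjusted p = 0.013. The WT OXA libraries were the lowest of the 16 for Uqcr11. WT vehicle replicate 4 was the highest of its group, and without it the adjusted p was 0.0506. With equal totals the adjusted p was 0.152 for Uqcrc1 and 0.0987 for Uqcr11. Uqcrh, the hinge protein, and Uqcrc2, the partner of Uqcrc1, did not pass in WT, at -0.56 ± 0.23 and -0.42 ± 0.18. Uqcrb and Uqcrq, further small subunits, were at 0.32 ± 0.16 and -0.20 ± 0.19, neither of which passed with the deposited scaling. Uqcrb was called higher with equal totals (0.64, adjusted p = 0.00112), after quantile normalization (adjusted p = 0.0325) and without KO OXA replicate 4 (adjusted p = 0.0443). Without that library Uqcrh and Uqcrc2 passed as lower (adjusted p = 0.00271 and 0.0338), as they did without KO OXA replicate 1 (0.038 and 0.0223).

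The largest fall of any member that passed was that of Ndufa4l2, which was placed with complex IV only as the paralog of Ndufa4. Counting Ndufa4 and its paralog Ndufa4l2 here, as Ndufa4 is known to be a complex IV subunit, 8 of 16 nuclear subunits fell with OXA in WT and none rose (11 lower and 0 higher at an unadjusted limma p under 0.05), with a median log2 fold change of -0.62. Equal library totals gave 6 lower and 1 higher. Ndufa4l2, a hypoxia-inducible paralog of Ndufa4 (chromosome 10, 127514967 to 127517154, GRCm38), had 862, 692, 1198 and 1212 in KO OXA, 894, 1002, 1311 and 1236 in KO vehicle, 160.4, 219.6, 188 and 187 in WT OXA and 1090.5, 702, 1275 and 1509 in WT vehicle. No library of WT OXA reached any of the other 12. The log2 fold change with OXA was -2.55 ± 0.22, adjusted p = 5.5e-08 in WT and -0.19 ± 0.22, adjusted p = 0.759 in KO, and the difference between these effects was 2.36 ± 0.31, adjusted p = 3.85e-05. Ndufa4 itself did not pass, at 0.34 ± 0.22, adjusted p = 0.234 in WT, with values of 6774 to 14388 in KO OXA, 4899 to 6609.6 in KO vehicle, 6715 to 11439 in WT OXA and 5359.9 to 7578 in WT vehicle. It was called higher with equal totals (0.67, adjusted p = 0.00881) and after quantile normalization (0.81, adjusted p = 0.00108).

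Several complex IV subunits exist as a heart and skeletal muscle form beside a general form, and the muscle forms could be read against them. Cox7a1, the muscle form, had 471, 329.8, 484 and 401 in KO OXA, 535, 449, 451 and 417 in KO vehicle, 277, 182, 151 and 103 in WT OXA and 423, 357, 361 and 557 in WT vehicle. With OXA in WT its log2 fold change was -1.31 ± 0.23, adjusted p = 0.000255. Its general counterpart Cox7a2 had 523 to 1386 in KO OXA, 382 to 607 in KO vehicle, 381 to 519 in WT OXA and 492 to 711 in WT vehicle and did not pass in WT (-0.51 ± 0.23, adjusted p = 0.0899), but passed as lower without KO OXA replicate 1 (adjusted p = 0.0455) or 4 (adjusted p = 0.0378). Cox7a2l, a related gene, had 1391, 1495, 1546 and 1669 in WT OXA, against 2819.9, 3149, 3658 and 4332 in WT vehicle, and a log2 fold change of -1.18 ± 0.18, adjusted p = 5.02e-05. For Cox7a1 and Cox7a2l all 4 WT OXA libraries lay below the other 12, and for Cox7a2 the WT groups overlapped.

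Both forms of subunit 8 fell in WT. Cox8b, the muscle form, had 319.7, 243, 217 and 217 in WT OXA, against 527, 423, 396 and 769 in WT vehicle, with a log2 fold change of -1.05 ± 0.25, adjusted p = 0.00262. Cox8a, the general form, had 3386, 4389.6, 4312 and 5029 in WT OXA, against 8114, 8253, 8434 and 10581 in WT vehicle, with a log2 fold change of -1.05 ± 0.21, adjusted p = 0.000822. For both forms WT OXA lay below the other 12 libraries, and the difference between the forms was not tested. For subunit 6a, the muscle form Cox6a2 fell to 3197 ± 415 in WT OXA, against 6139 ± 1407 in WT vehicle (-0.92 ± 0.22, adjusted p = 0.00298), while the general form Cox6a1 averaged 1591 ± 201 in WT OXA and 2048 ± 296 in WT vehicle and did not pass (-0.36 ± 0.15, adjusted p = 0.0635). Cox6b1, general, and Cox6b2, a testis form, did not pass either, at -0.43 ± 0.23 and -1.12 ± 0.51. Cox6a1 and Cox6b2 passed as lower without WT vehicle replicate 2 (adjusted p = 0.037 and 0.0192) and by DESeq2 (adjusted p = 0.0406 and 0.0201). Cox6b2 was low, at 22.6 to 53.2 in KO OXA, 15.5 to 64 in KO vehicle, 14.1 to 29.8 in WT OXA and 17 to 123 in WT vehicle. Cox7b, a small general subunit, had a log2 fold change of -0.65 ± 0.18, adjusted p = 0.00911, a call lost with equal library totals (adjusted p = 0.0978).

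**Figure D2:**
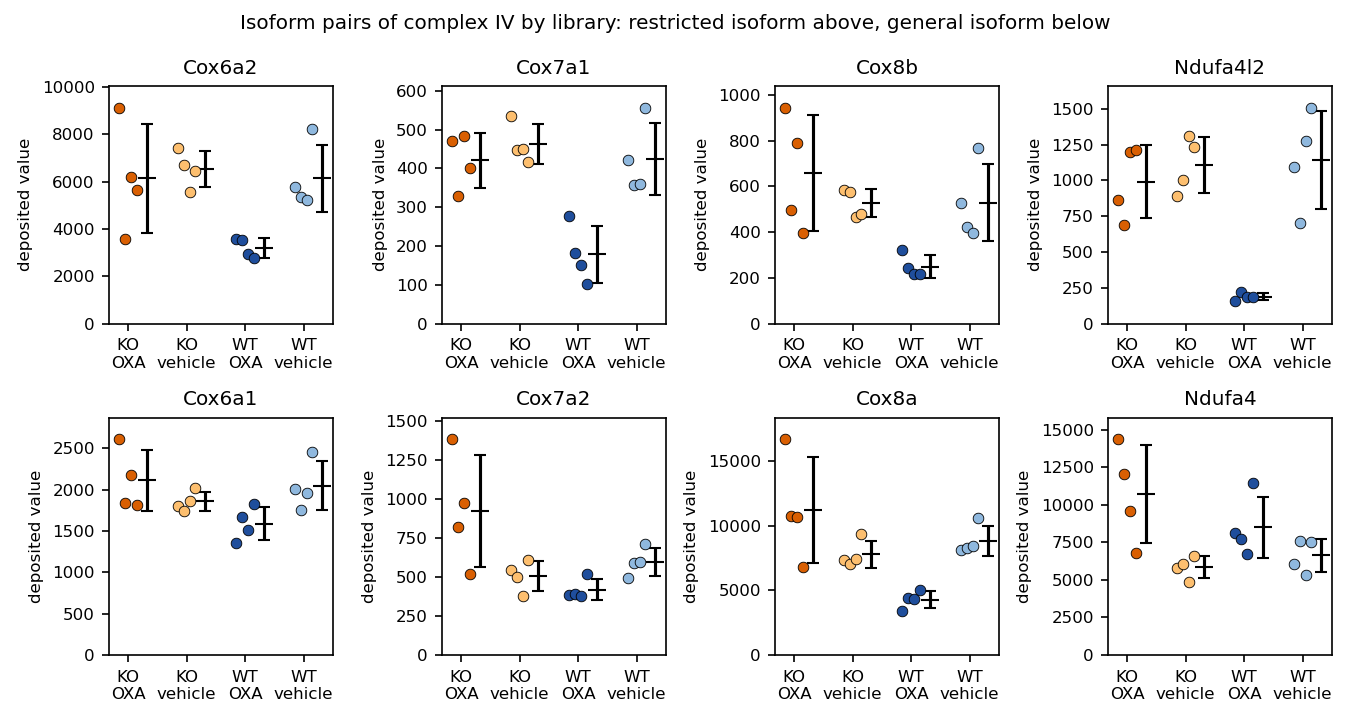
Deposited values per library of muscle-type complex IV subunits and their general counterparts and of Ndufa4l2 and Ndufa4, for KO OXA, KO vehicle, WT OXA and WT vehicle (points, with group means). In WT OXA the Ndufa4l2 points lie below all other libraries, and Cox7a1, Cox8a and Cox8b lie below WT vehicle.

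In the ATP synthase, 9 of 17 nuclear subunits fell with OXA in WT and 2 rose, with a median log2 fold change of -0.47, and equal library totals gave 4 lower and 4 higher. Atp5c1, the gamma subunit of the rotating central stalk (chromosome 2, 10056016 to 10080510, GRCm38), had 8229, 8053, 9271 and 5942 in KO OXA, 7337, 8436, 7329 and 8415 in KO vehicle, 4313, 3248, 2881 and 4645 in WT OXA and 7982, 7082, 8631 and 10423 in WT vehicle. WT OXA was below the other 3 groups in every library. The log2 fold change was -1.19 ± 0.18, adjusted p = 5.68e-05 in WT and -0.02 ± 0.18, adjusted p = 0.977 in KO. Atp5e, the epsilon subunit of the same stalk, changed by -0.82 ± 0.17, adjusted p = 0.0011 and Atp5j, a peripheral stalk subunit, by -0.87 ± 0.20, adjusted p = 0.00213 in WT.

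The membrane ring of the ATP synthase is made of subunit c, which 3 nuclear genes encode with the same mature protein. Atp5g1 fell to 1543 ± 84.4 in WT OXA, against 3147 ± 568 in WT vehicle (-1.01 ± 0.17, adjusted p = 0.000187). Atp5g3 did not pass in WT with the deposited scaling, with 12748, 13630.1, 11774 and 12274 in WT OXA, against 9320.2, 7923, 10209 and 11054 in WT vehicle (0.40 ± 0.16, adjusted p = 0.0662). It was called higher with equal totals (0.72, adjusted p = 0.000916), after quantile normalization (0.96, adjusted p = 3.85e-05), by DESeq2 (adjusted p = 0.0226), and without WT vehicle replicate 4 (adjusted p = 0.0474) or KO OXA replicate 1 (adjusted p = 0.0397). Under OXA it was lower in KO than in WT, with 8996, 6142, 7344 and 7287 in KO OXA, against the WT OXA values above (-0.77 ± 0.16, adjusted p = 0.0014). Among the subunits that rose in WT, Atp5mpl, a small membrane subunit, had 1128, 1104, 1282 and 1459 in WT OXA, against 731, 813, 803 and 1003 in WT vehicle (0.57 ± 0.19, adjusted p = 0.0226), and this call did not hold without WT OXA replicates 3 or 4 or WT vehicle replicates 1 or 3 (adjusted p up to 0.0746). The low-value Atp5o entry ENSMUSG00000022956 was the other, at 21.1, 23.6, 17.3 and 25.4 in WT OXA, against 2.75, 9.27, 16.4 and 2.23 in WT vehicle (1.73 ± 0.59, adjusted p = 0.0303). That call was lost without WT OXA replicates 1, 2 or 4 or WT vehicle replicates 1 or 4 (adjusted p up to 0.0983) and by edgeR, DESeq2, quantile normalization and no filter on low values.

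Of the 13 factors, 3 fell with OXA in WT (23.1%) and 2 rose (15.4%), near the 16% and 18% of all tested genes. Ndufaf6, a complex I assembly factor, had 409, 357, 379 and 381 in KO OXA, 332, 241, 304 and 341 in KO vehicle, 177, 165, 173 and 203 in WT OXA and 299, 319.9, 379 and 452 in WT vehicle. All 4 WT OXA libraries were below the other 12, with a log2 fold change of -0.997 ± 0.16, adjusted p = 0.000109 in WT and an effect in KO that exceeded it by 1.33 ± 0.23, adjusted p = 0.000577. Ndufaf3, another complex I assembly factor, had 54.8, 58, 47.1 and 57.8 in WT OXA, against 88.1, 149.9, 148 and 167 in WT vehicle (-1.29 ± 0.29, adjusted p = 0.00182). The third that fell was Ndufaf1 (-0.79 ± 0.22, adjusted p = 0.00954), a call lost with equal library totals (adjusted p = 0.104). The factors that rose were Ndufaf2 (0.70 ± 0.19, adjusted p = 0.00633), which is a paralog of the subunit Ndufa12, and Ndufaf4 (0.56 ± 0.20, adjusted p = 0.0341). The call for Ndufaf4 was lost without WT OXA replicates 1, 3 or 4 or WT vehicle replicate 4 (adjusted p up to 0.129), with no filter and when only the WT groups entered the fit.

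**Figure D3:**
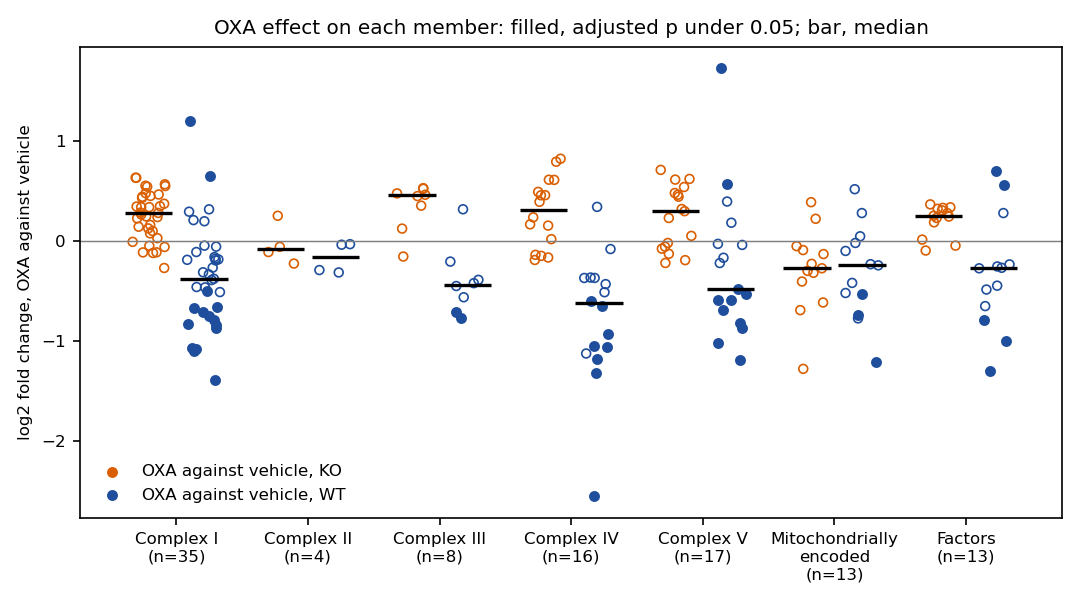
Log2 fold changes with OXA in KO and in WT for each nuclear subunit (points), grouped by complex, with the factors and the mitochondrially encoded subunits. The WT points lie mostly below 0 in complexes I, III, IV and V, with medians of -0.37, -0.43, -0.62 and -0.47, and the KO points of the nuclear subunits mostly above it, where none passed the threshold.

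The 13 proteins of the mitochondrial genome are made from long polycistronic transcripts that are mostly cut at transfer RNAs. They are counted here gene by gene, although mt-Atp8 and mt-Atp6 share a messenger and mt-Nd4l shares 2.36% of its exonic bases with mt-Nd4. With OXA in WT, mt-Co3, mt-Nd3 and mt-Nd1 fell and none of the 13 rose (4 lower and 0 higher at an unadjusted limma p under 0.05, and 4 lower and 0 higher by edgeR and by DESeq2). mt-Co3, a core subunit of complex IV, had 61100.5, 63198, 79139 and 43929 in KO OXA, 47953, 55402, 48104 and 56205 in KO vehicle, 20973, 22733, 20427 and 21514 in WT OXA and 52414, 54005, 47150.3 and 43994 in WT vehicle. All 4 WT OXA libraries lay below the other 12. The log2 fold change was -1.20 ± 0.22, adjusted p = 0.000365 in WT, and the KO effect exceeded it by 1.43 ± 0.31, adjusted p = 0.00397, a difference that did not pass after quantile normalization (adjusted p = 0.0569). mt-Nd3, a complex I subunit, had 8330.3, 8785, 8525 and 9897 in WT OXA, against 13584, 12942, 12774 and 11769 in WT vehicle (-0.52 ± 0.16, adjusted p = 0.0173). The call did not hold with equal totals (adjusted p = 0.224) or after quantile normalization, where the estimate was 0.005. The mt-Nd3 interaction (0.92 ± 0.23, adjusted p = 0.00928) was lost under the same scalings.

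mt-Nd1 had 61242, 84727, 110884 and 70503 in KO OXA, 90152, 82520.4, 80862 and 85949 in KO vehicle, 38675, 38897, 34775 and 39643 in WT OXA and 80262, 57448, 71788 and 47602 in WT vehicle. Its fall in WT (-0.73 ± 0.26, adjusted p = 0.0366) was lost without WT OXA replicates 1, 2, 3 or 4 or WT vehicle replicates 1 or 3 (adjusted p up to 0.105), and with equal totals, quantile normalization or no filter. The other subunits of complex I did not pass in WT, with log2 fold changes of -0.77 ± 0.34 for mt-Nd2, -0.52 ± 0.41 for mt-Nd4, 0.28 ± 0.22 for mt-Nd4l, -0.24 ± 0.31 for mt-Nd5 and 0.52 ± 0.62 for mt-Nd6. mt-Nd2 passed as lower by edgeR (adjusted p = 0.0214), by DESeq2 (adjusted p = 0.00245) and without KO OXA replicate 1 (adjusted p = 0.0385), and mt-Nd4l as higher with equal totals (0.60, adjusted p = 0.0444) and after quantile normalization (0.72, adjusted p = 0.0209). mt-Cytb, the core of complex III, had 123945 to 286442 in KO OXA, 215299 to 256924 in KO vehicle, 112183 to 137602 in WT OXA and 83890.4 to 197649 in WT vehicle and did not pass (-0.23 ± 0.38). In complex IV, mt-Co1 and mt-Co2 were at 0.05 ± 0.31 and -0.42 ± 0.29, and neither passed, although mt-Co2 did without both libraries that stood apart (-0.67, adjusted p = 0.0411). mt-Nd6 is encoded on the opposite strand from the others and had 14.7, 40.5, 30.9 and 140.2 in KO OXA, against 283, 437, 68.7 and 56.7 in WT OXA. The groups overlapped. It was lower in KO OXA (-1.85 ± 0.62, adjusted p = 0.032), and this call did not hold without KO OXA replicates 1, 2 or 3 or WT OXA replicates 1 or 2 (adjusted p up to 0.132). The strand setting of the count is not given in the sources used here, so reads from its strand and from the facing transcripts cannot be told apart.

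The ATP synthase subunits mt-Atp8 and mt-Atp6 share a stretch of sequence and are carried on 1 messenger. Their values lay far apart, with mt-Atp6 much the higher in every group. As mt-Atp8 is the 5′ one of the pair and CEL-Seq sequences 3′ ends, its low values are not read as a low level of the shared messenger. The part of this in the gap was not tested. The stretch is shown because a read lying within it matches both genes, and how such reads were counted is unknown. It lies at MT:7927-7969 (GRCm38, + strand, 43 bases), and the capitals mark the start codon of mt-Atp6 inside the end of mt-Atp8.
mt-Atp8 and mt-Atp6 overlap: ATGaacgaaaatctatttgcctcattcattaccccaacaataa
mt-Atp8 had 154 to 309 in KO OXA, 205 to 338 in KO vehicle, 207 to 254 in WT OXA and 165 to 274 in WT vehicle, and mt-Atp6 had 100468 to 224975 in KO OXA, 187898 to 218143 in KO vehicle, 119200 to 145744 in WT OXA and 88098 to 186350 in WT vehicle. Neither passed in any of the 5 comparisons with limma. Their log2 fold changes with OXA in WT were -0.02 ± 0.22 for mt-Atp8 and -0.10 ± 0.36 for mt-Atp6.

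**Figure D4:**
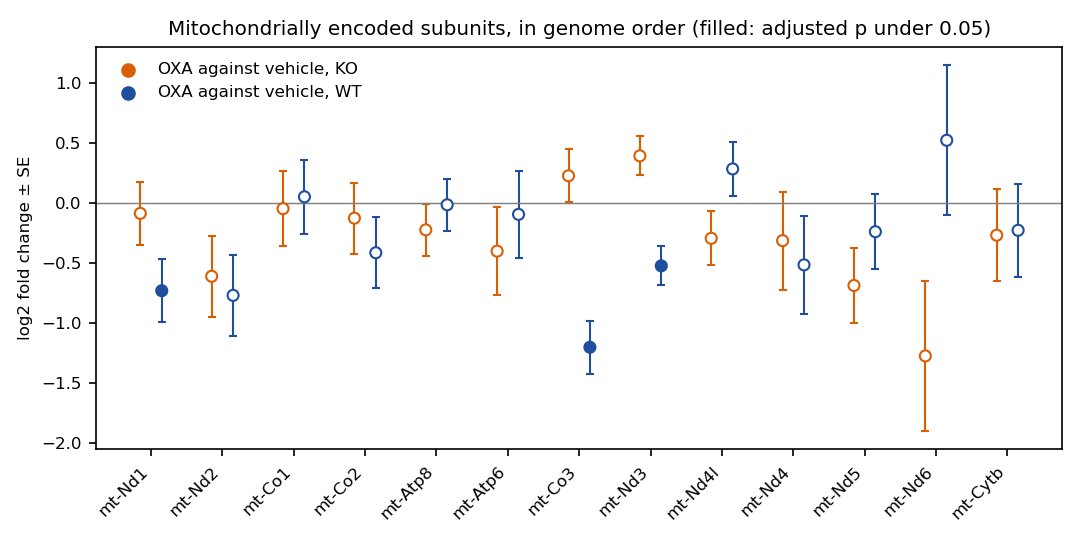
Log2 fold change with OXA against vehicle (points, ± SE) of each mitochondrially encoded subunit in KO and in WT, in genome order. Filled points have an adjusted limma p under 0.05. In WT the points of mt-Co3, mt-Nd3 and mt-Nd1 are filled and lie below 0, while no KO point is filled.

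As a share of all recovered reads, the mitochondrially encoded subunits made up 7.95 ± 2.54% in KO OXA, 9.92 ± 0.454% in KO vehicle, 6.83 ± 0.739% in WT OXA and 7.25 ± 1.92% in WT vehicle. The mitochondrial ribosomal RNAs, made from the same strand, were at 0.776 ± 0.273% in KO OXA, 1.14 ± 0.431% in KO vehicle, 0.453 ± 0.00627% in WT OXA and 1.34 ± 0.270% in WT vehicle, and both fell with OXA in WT (mt-Rnr1 -2.35 ± 0.35, adjusted p = 4.18e-05 and mt-Rnr2 -1.82 ± 0.33, adjusted p = 0.00028). The median log2 fold change of the 13 subunits with OXA in WT was -0.24, and it was 0.08 with equal library totals, with 1 higher and 1 lower. Leaving out KO OXA replicate 1 and WT vehicle replicate 4 gave 5 lower, 0 higher and a median of -0.51, while leaving out WT vehicle replicate 1 gave a median of -0.09. The sign of this median thus depended on the scaling, and its size on the libraries included. Under both scalings, which by construction shift all genes nearly alike, 11 of the 13 lay below the median of all genes. In KO the median of the 13 with OXA was -0.27, also with 11 of the 13 below the median of all genes, and it was -0.04 without KO OXA replicate 1 and -0.46 without KO OXA replicate 3.

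In KO mice, OXA gave no call among the 80 nuclear subunits with limma, where 1.81% of all genes rose and 0.0896% fell. By an unadjusted p under 0.05, 30 of the 80 were higher and 0 lower, against 9.44% and 4.78% of all genes. edgeR called 2 higher, where it called 2.23% of all genes higher, and DESeq2 called 12, against 3.89%, and none were called lower by either. The KO OXA libraries lay wholly above the KO vehicle libraries for 1 subunit and wholly below for 0, where 3.93% and 2.94% of all genes did so. The median log2 fold change over the 80 was 0.29. The spread within KO OXA was wide, and 1 library decided the count. Without KO OXA replicate 4, 29 nuclear subunits were called higher, and the share of all genes called higher was then 5.21%. Without KO OXA replicate 1, none were called, against 1.13% of all genes, and the median was 0.10. In complex III, 5 of 8 nuclear subunits were higher and 0 lower at an unadjusted limma p under 0.05. Members with the smallest p within complexes I, IV and V included Ndufb4 (0.63 ± 0.19, adjusted p = 0.11), Ndufa4 (0.83 ± 0.22, adjusted p = 0.0546), Cox7a2 (0.80 ± 0.23, adjusted p = 0.0851), Atp5mpl (0.71 ± 0.19, adjusted p = 0.0517) and Atp5f1, a peripheral stalk subunit (0.47 ± 0.14, adjusted p = 0.0974), and, among the factors, Sdhaf4 (0.33 ± 0.15, adjusted p = 0.321). Of these Ndufa4 had 14388, 12063, 9613 and 6774 in KO OXA, against 5828, 6069, 4899 and 6609.6 in KO vehicle. None of the 13 mitochondrially encoded subunits or the 13 factors passed with limma (1 higher and 1 lower, then 1 higher and 0 lower, by an unadjusted p under 0.05), and DESeq2 called 1 mitochondrially encoded subunit higher and edgeR none.

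The effect of OXA differed between genotypes for 32 of the 80 nuclear subunits, each with a higher (less negative or more positive) effect in KO, where 10.1% of all genes passed in that direction and 7.67% in the other. None passed in the other direction (2 at an unadjusted limma p under 0.05, 0 by edgeR, 1 by DESeq2). These were 12 subunits of complex I, 4 of complex III, 9 of complex IV and 7 of complex V. Of the 32 subunits that fell in WT, 25 passed this test. The tested difference contains the WT effect with its sign reversed, so this overlap is partly built in and is no separate support. Equal library totals gave 20 higher and 2 lower, where 5.27% of all genes were higher and 20.7% lower. Leaving out KO OXA replicate 1 and WT vehicle replicate 4 gave 25 higher and 2 lower, against 8.85% and 6.44% of all genes, with a median of 0.38 in place of 0.66. After Ndufa4l2 and Ndufb2, the largest differences among the nuclear subunits named were Ndufs8 (1.74 ± 0.37, adjusted p = 0.00294), Ndufb11 (1.54 ± 0.30, adjusted p = 0.00183), Ndufa7 (1.53 ± 0.30, adjusted p = 0.00183) and Cox8a (1.51 ± 0.30, adjusted p = 0.00194). Some members that did not pass in WT passed here, among them Cox7a2 (1.30 ± 0.32, adjusted p = 0.00812), Ndufb4 (1.01 ± 0.27, adjusted p = 0.0143) and Cox6c, a general complex IV subunit (0.98 ± 0.26, adjusted p = 0.0141). Ndufb4 and Cox6c were lost with equal totals (adjusted p = 0.0714 and 0.0727). For the muscle form Cox7a1 the difference (1.17 ± 0.33, adjusted p = 0.0187) did not pass with equal totals (adjusted p = 0.124) or without the libraries that stood apart (0.0619).

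In complex III, Uqcr11 (1.17 ± 0.30, adjusted p = 0.00954), Uqcrh (1.08 ± 0.32, adjusted p = 0.0238), Uqcr10 (0.92 ± 0.30, adjusted p = 0.0388) and Uqcrc2 (0.77 ± 0.25, adjusted p = 0.0359) passed the test of the difference between genotypes. Except for Uqcr11 these calls were close to the threshold. The call was lost without KO OXA replicates 1 or 3 or WT OXA replicate 2 for Uqcrh (adjusted p up to 0.0537), without any library other than KO OXA replicate 4, KO vehicle replicate 4, WT OXA replicate 4 or WT vehicle replicates 1 or 3 for Uqcr10 (up to 0.0751), and without any library other than KO OXA replicates 2 or 4, KO vehicle replicate 4, WT OXA replicate 4 or WT vehicle replicates 1 or 2 for Uqcrc2 (up to 0.0734). All 3 were also lost with equal totals. Among the mitochondrially encoded subunits mt-Co3 and mt-Nd3 passed, and the median over the 13 was -0.04, or 0.45 without KO OXA replicate 1 and WT vehicle replicate 4.

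KO and WT mice given OXA were then compared directly, a comparison that shares the WT OXA libraries with the effect of OXA in WT and the KO OXA libraries with the effect in KO. The 47 nuclear subunits higher in KO OXA were 18 of complex I, 5 of complex III, 13 of complex IV and 11 of complex V, and 29 of them were among the 32 that fell in WT. With equal library totals 25 were higher and 8 lower, where 7.6% of all genes were higher and 30.5% lower. Without KO OXA replicate 1 and WT vehicle replicate 4, 38 were higher and 4 lower, against 14.4% and 13.3% of all genes. Ndufa4l2 had the largest difference, at 991 ± 257 in KO OXA and 189 ± 24.2 in WT OXA, a 5.12-fold difference (2.36 ± 0.22, adjusted p = 1.54e-07). Cox7b averaged 1858 ± 492 in KO OXA and 801 ± 116 in WT OXA (1.18 ± 0.18, adjusted p = 6.72e-05), and Cox8a 11226 ± 4099 in KO OXA and 4279 ± 676 in WT OXA (1.33 ± 0.21, adjusted p = 0.000106). Calls for Cox6a1 (0.40 ± 0.15, adjusted p = 0.0477) and Atp5f1 (0.37 ± 0.14, adjusted p = 0.0485) turned round with equal totals, at -0.01 and -0.04 (adjusted p = 0.957 and 0.814). They were also lost without any library other than KO OXA replicates 2 or 4, WT OXA replicate 4 or WT vehicle replicates 2 or 4 for Cox6a1 (adjusted p up to 0.149) and without any library other than KO OXA replicate 4, WT OXA replicate 4 or WT vehicle replicates 2 or 4 for Atp5f1 (up to 0.13). The lower members were Ndufb8 and Atp5g3, described above. mt-Co3 (1.5004 ± 0.22, adjusted p = 4.65e-05), mt-Nd1 (1.07 ± 0.26, adjusted p = 0.00425) and mt-Nd3 (0.83 ± 0.16, adjusted p = 0.000706) were higher in KO OXA.

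Under vehicle, no member of the 106 passed between KO and WT esophagus by limma, where 0.0358% of all genes were higher and 0.0239% lower in KO. Among the 93 subunits 0 were called by edgeR and by DESeq2 and 0 had an unadjusted limma p under 0.05, and among the factors 1 did. For 0 nuclear subunits the KO vehicle libraries lay wholly above those of WT vehicle and for 3 wholly below, where 2.66% and 2.69% of all genes did so. For 3 of the 13 mitochondrially encoded subunits they lay wholly above and for 0 wholly below. The median log2 fold change was -0.12 over the nuclear subunits and 0.36 over the mitochondrially encoded ones, and leaving out WT vehicle replicate 4 with KO OXA replicate 1 moved these to -0.01 and 0.24. Ndufa4l2 averaged 1111 ± 196 in KO vehicle and 1144 ± 341 in WT vehicle, and mt-Co3 averaged 51916 ± 4501 in KO vehicle and 49391 ± 4639.6 in WT vehicle (SD, n = 4 each).

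Genes that feed or serve the respiratory chain were examined beside it with OXA in WT, where 16% of all genes fell and 18% rose, and 8.93% and 30.5% with equal totals. Of 14 tested genes of fatty acid beta oxidation, 11 fell and 0 rose (with equal totals 8 and 0), with a median log2 fold change of -0.80. Acaa2, the thiolase of that pathway, changed by -1.78 ± 0.21, adjusted p = 4.44e-06, and Slc25a20, the carnitine carrier, by -1.38 ± 0.16, adjusted p = 3.01e-06. Of 20 genes of the TCA cycle and pyruvate entry, 10 fell and 1 rose (with equal totals 3 and 3). Mdh2, the malate dehydrogenase of the matrix, changed by -1.75 ± 0.18, adjusted p = 5.9e-07, and the single one that rose was Dlst (1.36 ± 0.16, adjusted p = 4.7e-06), a subunit of the oxoglutarate dehydrogenase complex. Of 74 mitochondrial ribosomal protein genes, 25 fell and 0 rose (with equal totals 10 and 10). Of 20 genes of glycolysis, 6 fell and 1 rose (with equal totals 2 and 4), and Aldoc (-1.54 ± 0.21, adjusted p = 1.61e-05) and Hk1 (-0.92 ± 0.18, adjusted p = 0.000561) had the smallest p.

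Of 16 complex IV assembly genes, 6 fell and 1 rose (with equal totals 3 and 2), led by Higd2a (-1.22 ± 0.16, adjusted p = 9.68e-06) and Cox14 (-1.33 ± 0.20, adjusted p = 4.03e-05). Of 10 carriers, porins and uncoupling proteins, 3 fell and 0 rose (with equal totals 2 and 0), among them Slc25a5, an ADP/ATP carrier (-1.18 ± 0.26, adjusted p = 0.00155), and the porin Vdac3 (-1.04 ± 0.17, adjusted p = 0.000122). Of 16 protein import genes, 5 fell and 1 rose (with equal totals 2 and 3), with Timm8b at -1.04 ± 0.25, adjusted p = 0.00301 and Timm17b at -0.73 ± 0.15, adjusted p = 0.00101. Of 7 electron carriers, 3 fell and 0 rose (with equal totals 1 and 1), with Prodh at -1.51 ± 0.31, adjusted p = 0.000975 and Etfdh at -0.62 ± 0.17, adjusted p = 0.00846. Of 13 coenzyme Q synthesis genes, 3 fell and 1 rose (with equal totals 0 and 2), with Coq6 at -0.81 ± 0.24, adjusted p = 0.0132, lost without WT OXA replicate 3 (adjusted p = 0.0564), and Coq8b at 1.64 ± 0.57, adjusted p = 0.0306, lost without WT OXA replicates 1, 3 or 4 or WT vehicle replicates 3 or 4 (up to 0.118). Regulators of mitochondrial biogenesis went both ways. Of 19, 3 fell and 3 rose (with equal totals 1 and 6). Tefm, the elongation factor of the mitochondrial polymerase, changed by -1.39 ± 0.18, adjusted p = 1.08e-05, and Mterf4 by -0.88 ± 0.24, adjusted p = 0.0087, which was lost with equal totals (adjusted p = 0.0643). In KO mice none of the genes in these lists passed with OXA by limma, where 1.81% of all genes rose and 0.0896% fell.

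Markers of the cell types in the tissue moved as well. Of 22 tested skeletal muscle markers, 8 fell and 1 rose (with equal totals 8 and 1), with Myh4, a fast myosin, at -2.63 ± 0.33, adjusted p = 5.92e-06, Pvalb at -2.25 ± 0.31, adjusted p = 1.86e-05 and Tnnt1, a slow troponin, at 1.87 ± 0.33, adjusted p = 0.000268. The summed level of these markers was 258834 to 415293 in KO OXA, 372757 to 528987 in KO vehicle, 186877 to 361106 in WT OXA and 285265 to 542284 in WT vehicle, so the groups overlapped, 6 of the markers are also on the slow fibre list, and Myh7 was at 0 in all libraries of KO OXA and WT vehicle. Of 8 slow and oxidative fibre markers, 3 fell and 1 rose (with equal totals 2 and 1), led by Tnnt1 and the oxygen carrier Mb (-1.10 ± 0.23, adjusted p = 0.00117, lost after quantile normalization at an adjusted p of 0.0566), and their sum was 28270.2 to 48957 in KO OXA, 36762 to 46342 in KO vehicle, 17384 to 32177 in WT OXA and 34312 to 67981 in WT vehicle, where WT OXA lay below WT vehicle in every library. Of 11 smooth muscle markers, 5 fell and 0 rose (with equal totals 3 and 0), with Cnn1 at -1.54 ± 0.35, adjusted p = 0.00201 and Myh11 at -1.24 ± 0.24, adjusted p = 0.000586. Their sum was 22651 to 39781 in KO OXA, 36686 to 41691 in KO vehicle, 24959.7 to 42961 in WT OXA and 33773 to 64809 in WT vehicle. None of 11 adipocyte markers passed in WT by limma with the deposited scaling, and with equal totals 0 fell and 1 rose, Fabp4 (0.83, adjusted p = 0.00812), which DESeq2 also called higher (adjusted p = 0.047).

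Of 10 suprabasal epithelial markers, 7 fell and 0 rose (with equal totals 8 and 0), with Krt78 at -2.53 ± 0.21, adjusted p = 3.04e-08 and Flg at -6.38 ± 0.47, adjusted p = 5.68e-09. Their summed level was 1397290 to 2966410 in KO OXA, 1510100 to 1806690 in KO vehicle, 466206 to 756542 in WT OXA and 1369170 to 2039170 in WT vehicle, so WT OXA lay below the other 12 libraries, as it did for the nuclear subunits. Sbsn was at 0 throughout. Of the 8 basal epithelial markers, 4 fell and 2 rose (with equal totals 2 and 3), with Krt14 at 2.04 ± 0.20, adjusted p = 4.22e-07 and Col17a1 at -1.79 ± 0.21, adjusted p = 2.62e-06, and their sum was 42881 to 68407 in KO OXA, 43679.6 to 48698 in KO vehicle, 33824 to 49615 in WT OXA and 38412 to 66603 in WT vehicle. Of 11 leukocyte markers, 0 fell and 7 rose (with equal totals 0 and 7), with Ptprc at 2.46 ± 0.36, adjusted p = 3.94e-05 and Cd4 at 4.76 ± 0.63, adjusted p = 1.11e-05, and 3 rose in KO. Their sum was 3392 to 7901 in KO OXA, 1814 to 3392 in KO vehicle, 3733 to 4540.5 in WT OXA and 2598 to 3426 in WT vehicle, and Itgam was at 0 throughout. The part of muscle, epithelial and leukocyte content in the levels of the subunits was not tested.

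Exonic length moved with the effect of OXA across the whole table, and most nuclear subunits are short. When the tested genes with a known length were ranked by total exonic length, the median log2 fold change with OXA in WT was -0.15 in the shortest quintile (57 to 2085 bases) and 0.31 in the longest. Of the 80 nuclear subunits 51 were in the shortest quintile, with a median of -0.46. In KO the medians of all genes ran the other way, at 0.10 in the shortest quintile and -0.08 in the longest, and that of the 51 subunits was 0.35. The part of length in their change was not tested.

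**Figure D5:**
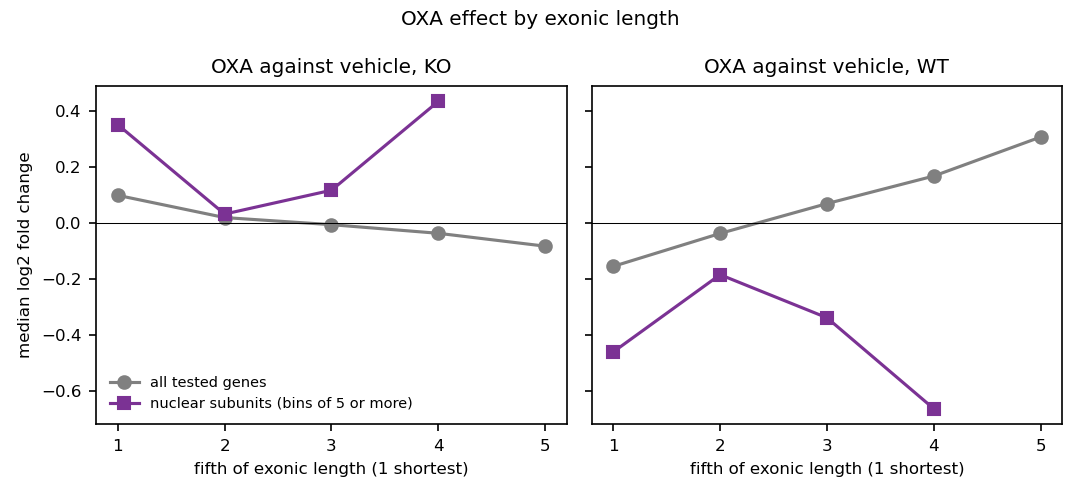
Median log2 fold change with OXA in KO and in WT by quintile of exonic length, for all tested genes and for the nuclear subunits. For all genes the WT line runs upward with length, at -0.15 in the shortest and 0.31 in the longest quintile, and the subunits of the shortest quintile lie below it at -0.46.

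Promoters of nuclear subunits are known for sites of the nuclear respiratory factor NRF1, of ETS-family factors such as GABP (NRF2), of YY1 and of the estrogen-related receptors. RefSeq promoters on GRCm38.p6, from 250 bases before to 50 after the gene start, were at hand for 65 of the 79 nuclear subunit symbols and were searched on both strands for 10 motifs. The NRF1 motif (GCGCA, any base N, then GCGC) was found in 26.2% of the 65, against 7.17% of 17492 protein-coding genes. CCGGAAG (ETS) was found in 24.6%, against 12.9%, AAGATGGCG (YY1) in 10.8%, against 2.14%, and TCAAGGTCA (estrogen-related receptor) in 3.08%, against 0.377%. Matches of the 4 motifs may overlap each other. The subunits that fell in WT and the others could be set side by side. NRF1 was in 17.2% of the 29 that fell and 33.3% of the 36 others, ETS in 24.1% of those that fell and 25% of the others, YY1 in 10.3% of those that fell and 11.1% of the others, and the receptor motif in 0% of those that fell and 5.56% of the others. These are shares of letters in a window, not of bound sites, and no test was run on them.

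The other 6 motifs were GGGCGG (SP) in 38.5% of subunits, against 49.2% of all, CCAAT in 41.5%, against 42.3%, TATAAA in 9.23%, against 14.8%, CANNTG (E-box) in 69.2%, against 72.1%, ACGTG (hypoxia response) in 24.6%, against 23.2%, and the MEF2 motif (CTATA followed directly by AATAG) in 0%, against 0.177%. Among subunits that fell in WT and among the others, GGGCGG was in 34.5% and 41.7%, and CCAAT in 44.8% and 38.9%. TATAAA was in 6.9% and 11.1%, CANNTG in 69% and 69.4%, ACGTG in 31% and 19.4%, and the MEF2 motif in 0% of both. No test was run on these shares either. The choice of the 4 motifs that are set in capitals below was made after these shares were known.

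The promoters shown are those of the subunits of complexes I, III, IV and V with the smallest p for a fall in WT among those that hold a match, because they place the known motifs beside members that moved together, and that of the muscle form Cox7a1, which holds none of the 4. A match was made a condition after promoters first picked by the difference between genotypes were found to hold few. Each runs 5′ to 3′ on the strand of its gene, with matches in capitals: YY1 in Ndufc1 (chr3:51408906-51409205, - strand), NRF1 in Uqcrc1 (chr9:108936398-108936697, + strand), ETS in Cox8a (chr19:7217567-7217866, - strand) and NRF1 in Atp5c1 (chr2:10080383-10080682, - strand), while Cox7a1 (chr7:30183921-30184220, + strand) has no capitals.
Ndufc1: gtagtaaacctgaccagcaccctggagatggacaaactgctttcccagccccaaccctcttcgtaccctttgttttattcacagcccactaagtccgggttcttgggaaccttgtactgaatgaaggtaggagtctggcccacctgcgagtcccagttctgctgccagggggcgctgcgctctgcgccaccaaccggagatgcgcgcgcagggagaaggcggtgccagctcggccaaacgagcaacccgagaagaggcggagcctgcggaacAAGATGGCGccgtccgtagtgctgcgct
Uqcrc1: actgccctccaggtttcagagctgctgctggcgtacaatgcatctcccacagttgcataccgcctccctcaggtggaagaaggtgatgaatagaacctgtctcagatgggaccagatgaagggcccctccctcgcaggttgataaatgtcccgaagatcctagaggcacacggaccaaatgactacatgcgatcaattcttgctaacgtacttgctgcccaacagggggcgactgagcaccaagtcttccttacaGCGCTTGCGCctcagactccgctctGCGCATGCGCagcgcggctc
Cox8a: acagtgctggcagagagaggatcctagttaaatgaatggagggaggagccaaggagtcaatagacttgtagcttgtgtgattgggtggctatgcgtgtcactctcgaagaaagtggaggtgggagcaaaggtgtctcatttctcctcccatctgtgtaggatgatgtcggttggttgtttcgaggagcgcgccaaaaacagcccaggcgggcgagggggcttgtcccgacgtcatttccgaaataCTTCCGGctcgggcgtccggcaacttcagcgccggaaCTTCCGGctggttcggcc
Atp5c1: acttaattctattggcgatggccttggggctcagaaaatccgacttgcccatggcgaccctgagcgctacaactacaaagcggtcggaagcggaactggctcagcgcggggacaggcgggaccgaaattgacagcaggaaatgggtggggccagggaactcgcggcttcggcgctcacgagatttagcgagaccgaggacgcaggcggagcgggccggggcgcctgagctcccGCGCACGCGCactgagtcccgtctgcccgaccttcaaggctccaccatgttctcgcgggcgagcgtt
Cox7a1: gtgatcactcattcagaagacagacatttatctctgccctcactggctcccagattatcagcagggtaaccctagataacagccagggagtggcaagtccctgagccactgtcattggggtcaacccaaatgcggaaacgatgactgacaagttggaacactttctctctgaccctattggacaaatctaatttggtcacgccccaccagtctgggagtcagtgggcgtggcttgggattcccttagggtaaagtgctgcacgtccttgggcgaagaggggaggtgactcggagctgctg
In Uqcrc1 and Cox8a the motif occurs 2 times, and in Ndufc1 and Atp5c1 once. RefSeq lists another start for Atp5c1, whose window holds no match. The muscle form and the other 4 all fell in WT, and no match in Cox7a1 says only that these letters are not in this window.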

How the data were processed

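CEL-Seq libraries of mouse esophagus were analysed, 4 in each of 4 groups. The deposited table holds a signal per gene and library: per the file's values, the authors' gene counts after division of each library by a size factor, since whole reads could be recovered for 100% of values at a tolerance of 0.1 read. Per the submitters' processing notes, FastQC 0.11.5, Trim Galore, cutadapt 1.10, TopHat2 2.1.0, Bowtie2 2.2.6, HTSeq 0.6.1 and DESeq2 1.28.0 were used with GRCm38, with no role given for each. The annotation release, strand setting and treatment of multi-mapping reads and molecular identifiers are not given in the sources used here, so reads shared with pseudogenes, paralogs or antisense genes are uncertain.

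Depth ran from 5.61 to 27.3 M recovered reads per library, and counts cover counting error only. The 16748 genes at 5 or more in at least 4 libraries were tested on log2(value + 1) with limma 3.58.1 (R 4.3.3): 4 group means over all 16 libraries, moderated with a mean trend, two-sided, Benjamini-Hochberg adjusted, threshold 0.05. edgeR 4.0.16 (quasi-likelihood) and DESeq2 1.42.0 on recovered reads, other pseudocounts, filters and scalings, fits of the compared groups alone, and leaving out each library were alternatives. The code was tested on simulated data.

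The members and gene lists were chosen with earlier results of these data known. Always named were the mitochondrially encoded members, the tissue-specific isoforms with their counterparts and the Sdh subunits. In each comparison were added the 2 members with the smallest p in complexes I, III, IV and V and among the factors, the extreme fold changes that passed, and 2 genes per list. Ndufb8, Ndufs8, Ndufv1, Ndufaf1 and Ndufaf2 were named after their values were seen. The split into subunits and factors, the placing of Ndufa4 and Ndufa4l2, the core split of complex I, read shares, length quintiles, motifs and the libraries left out together were also chosen after seeing the data.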

Additional observations from a re-analysis of the deposited data

Results flagged for a closer look

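In 10 of 256 groups of 4 libraries examined for the members named here, the highest library lay far from the other 3 by Dixon's test at the 95% level, where chance flags about 1 in 20. In KO OXA the outlying library held 20.2 for Atp5o (ENSMUSG00000022956), 220.0 for Ndufaf3 and 47.7 for Ndufb8. In KO vehicle the outlying library held 9351 for Cox8a. In WT OXA the outlying library held 1566 for Atp5f1, 519 for Cox7a2, 1229.6 for Ndufc1 and 491 for Sdhaf4. In WT vehicle the outlying library held 10581 for Cox8a and 557 for Uqcr11.

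The log2 effect of OXA in KO minus that in WT passed the limma interaction test (adjusted over all genes) for 51 of the named genes and did not for 45. Of all tested genes, 10.1% passed with a higher effect in KO and 7.67% with a lower one. Many of these genes were named for a small p in this test or in comparisons that share its libraries. The count therefore follows in part from the naming. In complex I the difference was 1.82 for Ndufb2, 1.74 for Ndufs8, 1.54 for Ndufb11, 1.53 for Ndufa7, 1.01 for Ndufb4, 0.96 for Ndufc1 and 0.93 for Ndufb6. In complex III it was 1.17 for Uqcr11, 1.08 for Uqcrh, 0.92 for Uqcr10 and 0.77 for Uqcrc2. In complex IV it was 2.36 for Ndufa4l2, 1.51 for Cox8a, 1.34 for Cox7a2l, 1.30 for Cox7a2, 1.29 for Cox8b, 1.26 for Cox7b, 1.17 for Cox7a1 and 0.98 for Cox6c, and in complex V 1.31 for Atp5j, 1.17 for Atp5c1, 1.07 for Atp5g1 and 1.05 for Atp5e. Among the factors it was 1.63 for Ndufaf3 and 1.33 for Ndufaf6, and among the mitochondrially encoded subunits 1.43 for mt-Co3 and 0.92 for mt-Nd3.

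Among the genes of the other pathway lists and the tissue markers, the difference was positive at 7.80 for Flg, 2.48 for Krt78, 2.06 for Myh4, 2.01 for Tefm, 1.99 for mt-Rnr1, 1.94 for Acaa2, 1.80 for Col17a1, 1.67 for Timm8b, 1.61 for Slc25a5, 1.56 for Pvalb, 1.47 for Cox14, 1.45 for Aldoc, 1.40 for mt-Rnr2, 1.32 for Mdh2, 1.279 for Mterf4, 1.17 for Vdac3, 1.16 for Slc25a20, 1.15 for Mb, 1.08 for Higd2a and 0.75 for Etfdh. It was negative at -1.41 for Krt14, -1.56 for Dlst, -2.32 for Tnnt1 and -3.78 for Cd4. The calls of Uqcr10, Uqcrc2, Uqcrh, Etfdh and mt-Rnr2 were lost without at least 1 library, with adjusted p up to 0.0751, 0.0734, 0.0537, 0.0709 and 0.098.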

How the results depend on the processing

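No paired analysis was possible because the labels give the groups no shared replicate numbers. With fits of the WT groups alone, 40 nuclear subunits fell. Where neither value passed the threshold, a change of sign was not counted as a reversal.

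For OXA in WT, equal library totals gave 12 nuclear subunits higher and 19 lower (median -0.10) and 1 mitochondrially encoded subunit higher and 1 lower (median 0.081), while the median of all genes was 0.41 in place of 0.0994. Quantile normalization gave 7 nuclear subunits higher, and 1 mitochondrially encoded subunit higher and 1 lower, and the mt-Nd3 change was 0.0051. Equal totals without abundant and mitochondrial genes gave 10 nuclear subunits higher, and leaving out both libraries that stand apart gave 5 mitochondrially encoded subunits lower. Of the 32 nuclear subunits that fell, 19 still did with equal totals, 30 after quantile normalization and 29 without both libraries.

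For OXA in KO, nuclear subunits called higher numbered 2 with a filter of 20, 1 after quantile normalization, 2 by edgeR and 12 by DESeq2, which also called 1 mitochondrially encoded subunit higher.

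For the interaction, equal totals gave 20 nuclear subunits higher and 2 lower (median 0.21), and 1 mitochondrially encoded subunit higher and 1 lower (median -0.48). Quantile normalization gave 1 nuclear subunit lower (median 0.41), and 0 mitochondrially encoded subunits higher and 1 lower. Equal totals without abundant and mitochondrial genes gave 2 nuclear subunits lower (median 0.33) and a mitochondrial median of -0.36. DESeq2 gave 1 nuclear subunit lower. Without both libraries, 2 nuclear subunits were lower (median 0.38) and the mitochondrial median was 0.45.

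For KO against WT under OXA, equal totals gave 25 nuclear subunits higher and 8 lower (median 0.18) and 2 mitochondrially encoded subunits lower (median 0.15), and turned Cox6a1 to -0.011 and Atp5f1 to -0.041. Quantile normalization gave 4 nuclear subunits lower (median 0.36), and 1 mitochondrially encoded subunit higher and 2 lower (median 0.014). Equal totals without abundant and mitochondrial genes gave 31 higher and 4 lower (median 0.34). No mitochondrially encoded subunit (0) was lower with no filter, with only the groups compared or without both libraries, and 5 were higher by edgeR, 7 by DESeq2 and 6 without both libraries, where 4 nuclear subunits were lower. Apart from the scalings, whose construction moves all genes, the cause was not tested.

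With each library left out in turn, nuclear subunits in WT numbered 24 to 43 lower and 2 to 5 higher, and mitochondrially encoded ones 2 to 4 lower. In KO, 0 to 29 nuclear and 0 to 1 mitochondrially encoded subunits were higher. For the interaction, 28 to 44 nuclear subunits were higher and 0 to 2 lower, and 0 to 1 mitochondrially encoded ones lower. Under OXA, 33 to 51 nuclear subunits were higher and 1 to 3 lower in KO, and 3 to 5 mitochondrially encoded ones higher and 0 to 1 lower. Of 180 calls of named genes, 156 held with every library left out. Of the 129 outside the interaction, 93 held in all 11 other settings, and of the 51 interaction calls 35 held in the 10 settings that give one. Among values of named genes that did not pass, 18 of 32 for OXA in WT, 23 of 95 for OXA in KO, 20 of 45 for the interaction, 12 of 32 under OXA and 0 of 96 under vehicle passed in at least 1 alternative. Group sizes of 4, unequal depth and 2 libraries that stand apart limit all of these values.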
